A study of Mus musculus and Rattus norvegicus with 12 samples.

Results

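The genes described here are the pore-forming and accessory subunits of voltage-gated sodium and calcium channels, followed in hearts and heart muscle cells in which Jmjd4, which encodes a JmjC-domain oxygenase, was deleted or knocked down by design. Members were taken by name alone, as every symbol of the Scn family with an a or b suffix (sodium channel alpha and beta subunits) and every Cacna, Cacnb, Cacng and Cacna2d symbol (calcium channel alpha1, beta, gamma and alpha2delta subunits). This gave 39 of 54087 symbols in the mouse table and 40 of 28909 in the rat table, and the counts of members below cover the 37 and 38 of them that are described. The rat table lists Scn2a, which the mouse table lists as Scn2a1, outside the naming rule. Scn4b and Cacna1s had been singled out as lower with earlier results of these data known.

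The mouse samples were heart apex of animals with floxed Jmjd4 alleles (Jmjd4f/f), all given tamoxifen and taken 14 days after its induction. Control mice carried the floxed alleles without Cre (flox, n = 3), and knockout mice also carried the MCM transgene, a tamoxifen-dependent Cre driven in cardiomyocytes by the Myh6 promoter (cKO, n = 3). Because the controls carry no Cre, the effect of Cre itself and that of losing Jmjd4 cannot be told apart, and non-muscle cells of the heart keep the gene. The rat samples were neonatal ventricular cardiomyocytes (NRVCs) from 1-day-old Sprague-Dawley (SD) rats, treated for 48 h with either a non-targeting siRNA (siNC, n = 3) or one directed at Jmjd4 (siJmjd4, n = 3). The age and sex of the mice, and whether replicates came from separate animals or cell isolations, were not stated in the labels, so the p-values measure the spread between these samples, which may be partly technical.

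Voltage-gated sodium channels open on depolarisation and carry the fast inward current of the action potential upstroke. Small beta subunits set the gating of the alpha pore and its place in the membrane. Calcium channels have an alpha1 pore joined by an intracellular beta subunit and an extracellular alpha2delta subunit. The L-type pore Cacna1c (Cav1.2) brings in the calcium that triggers release from the sarcoplasmic reticulum, while the T-type pores Cacna1g and Cacna1h are prominent in fetal, conduction and stressed heart tissue. Cacna1s (Cav1.1) and Cacng1 are known from skeletal muscle, where Cav1.1 is the voltage sensor of contraction.

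The 12 libraries held 57174654 to 82187009 counts each. Flox replicate 3 stood apart. The mitochondrial share of its counts was 41.7%, where the other 5 heart libraries had 14.2% to 24.1%, and it lacked any count for 1485 tested genes, where the others lacked 125 to 503. Its depletion went with transcript length, with a Spearman rho across genes of -0.65 between its ratio to the group and length, and cKO replicate 2 had a rho of -0.57. In the rat, siNC replicate 3 had a rho of -0.50 and 461 tested genes at 0 against 78 to 137 in the others, and siJmjd4 replicate 1 had a rho of -0.39. Channel pores have long transcripts, so many results are given with and without flox replicate 3 or siNC replicate 3. Those fits keep cKO replicate 2 and siJmjd4 replicate 1 unless their absence is stated. Levels are given in CPM, TMM-scaled counts-per-million. The Jmjd4 transcript measured 19.0, 8.04 and 16.9 CPM across flox replicates 1 to 3, against 8.95, 4.92 and 9.63 CPM across cKO replicates 1 to 3, a log2 fold change of -0.90 (SE 0.44) that missed the threshold in edgeR's quasi-likelihood test (adjusted p = 0.397). In the NRVCs it was at 3.46, 4.40 and 0.982 CPM with siNC, and those labelled siJmjd4 had 3.58, 3.43 and 3.52 CPM (log2 fold change 0.25, SE 0.52, edgeR adjusted p = 0.770), so a lower Jmjd4 transcript was not detectable there, also without siNC replicate 3 (-0.16). Exons of mouse Jmjd4 overlap Snap47 on the minus strand, so reads of the pair may not be separable if counting ignored strand.

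The labels call the cell type cardiomyocytes in both systems, yet other cells were represented. In the hearts the summed CPM of 8 cardiomyocyte markers was 36532 to 46042 in flox and 26688 to 31819 in cKO, and that of 7 fibroblast markers was 824 to 858 in flox and 1653 to 3024 in cKO. Macrophage markers (6 genes) summed to 313 to 691 and 668 to 974 CPM, and smooth muscle markers (5 genes) to 473 to 582 and 268 to 411 CPM. Skeletal muscle markers (11 genes) summed to 4.21 to 8.07 CPM in flox and 17.4 to 29.1 CPM in cKO, most of it from Tnnt3, with Myh4, Myod1 and Pax7 at 0 in every heart library. In the NRVCs fibroblast markers summed to 29543 to 35460 CPM, above the 10463 to 18734 CPM of the cardiomyocyte markers. The lower cardiomyocyte sum of the cKO hearts does not stand for each marker in it. For Myh7 the heart log2 fold change minus the NRVC one was 4.20 (SE 0.86, edgeR fit of all 12 libraries, adjusted p = 0.0352). Its NRVC log2 fold change was -0.25, so Myh7 was higher in cKO hearts. In such bulk samples fewer cells of a type and less RNA per cell cannot be told apart, and the part of these markers in the results below was not tested.

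Of the 37 members in the heart table, 23 were tested after the filter on low counts and 14 were not, the latter with at most 30 counts in any library. Cacng2 and Scn9a had no count in any of the 6. Scn4b was the one member that passed the threshold (edgeR quasi-likelihood test, adjusted p under 0.05 over all 18094 genes tested), and it was lower. No member was called higher. Over all tested genes 0.138% were called lower and 0.37% higher. Without flox replicate 3, 5 members passed: Cacnb1 was higher and Cacna1s, Cacnb2, Scn4a and Scn4b lower, where 4.26% of all tested genes were called higher and 2.93% lower. The median log2 fold change of the tested members was -0.31 against 0.00 over all genes, and -0.81 without flox replicate 3. That fit keeps cKO replicate 2, whose depletion also went with transcript length (rho -0.57). Its part in the lower values of long members was not tested.

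In 5 of the tested members every cKO library lay on one side of every flox library. Cacnb1 and Cacnb3 were above and Cacna1s, Cacng6 and Scn4b below, while 14.9% of all tested genes lay wholly above and 11.2% wholly below. The plot of heart CPM by library shows these 5 beside 5 members whose groups overlapped.

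**Figure D1:**
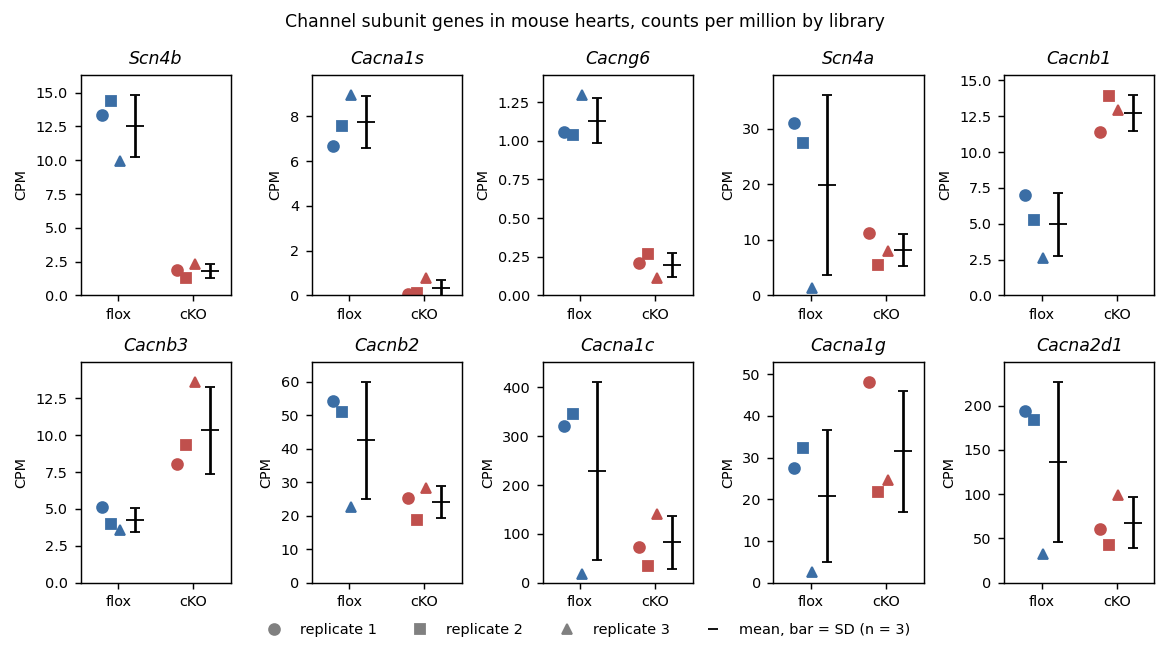
CPM (linear axes from 0) of 10 channel genes in the 3 flox and 3 cKO heart libraries, 1 marker shape per replicate, with the group mean and a bar of 1 SD (n = 3, drawn down to 0 at most). Scn4b, Cacna1s and Cacng6 are lower and Cacnb1 and Cacnb3 higher in every cKO library than in every flox library. Replicate 3 is the lowest flox point of Cacna1c, Cacna1g, Cacna2d1, Scn4a and Cacnb2, and also of Scn4b, Cacnb1 and Cacnb3.

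Among the sodium channel beta subunits, Scn4b stood out in the hearts. Scn4b, the beta4 subunit that binds the pore by a disulfide bond and shapes resurgent current, was at 13.3, 14.4 and 9.94 CPM in flox replicates 1 to 3, a mean of 12.5 ± 2.31 (SD, n = 3). In cKO replicates 1 to 3 it was at 1.85, 1.27 and 2.32 CPM, a mean of 1.81 ± 0.527 (SD, n = 3). All 3 cKO libraries were far below all 3 flox libraries. The fold change was 6.91-fold lower (log2 -2.79, SE 0.36, edgeR adjusted p = 0.0387), and 7.61-fold lower without flox replicate 3 (adjusted p = 0.00618). The call was lost when any other library was left out, with edgeR adjusted p of 0.164 without flox replicate 1, 0.183 without flox replicate 2, 0.219 without cKO replicate 1, 0.177 without cKO replicate 2 and 0.162 without cKO replicate 3, while the log2 fold change stayed between -2.58 and -2.999. With the replicate block the adjusted p was 0.334. Scn4b lies on chromosome 9 of GRCm38, 45138395 to 45154152 on the plus strand, 8324 bases beyond the end of Scn2b, and no other gene overlaps its exons.

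The beta subunits Scn3b and Scn2b were low. Scn3b, expressed in ventricle and conduction tissue, was at 1.74, 2.35 and 0.791 CPM in flox and 2.99, 2.98 and 0.794 CPM in cKO, and the groups overlapped (log2 fold change 0.46, SE 0.64). Scn2b stayed under 1 CPM in every library, at 0.674, 0.804 and 0.254 CPM in flox and 0.304, 0 and 0.224 CPM in cKO. Its groups overlapped too (log2 fold change -1.71, SE 1.24, edgeR adjusted p = 0.592).

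Because Scn4b, Cacna1s and Cacng6 were the 3 members below flox in every cKO library, their start regions are shown, from RefSeq on GRCm38.p6, 250 bases before to 50 after the annotated start and in the sense of the gene. The gene starts of GENCODE differ from these. They lie inside the window for Scn4b (45138395) and Cacna1s (136052750), and before the whole window for Cacng6 (3424195). By that annotation the Cacng6 window and most of the Scn4b window lie within the gene, so the letters shown are not all upstream sequence. Capitals mark matches to 2 motifs searched on both strands. CATTCC is the M-CAT element that TEAD factors bind in muscle genes, and it appears as GGAATG where the match is on the other strand. CAGCTG is an E-box of muscle basic helix-loop-helix factors.
Scn4b, chr9:45138374-45138673, plus strand: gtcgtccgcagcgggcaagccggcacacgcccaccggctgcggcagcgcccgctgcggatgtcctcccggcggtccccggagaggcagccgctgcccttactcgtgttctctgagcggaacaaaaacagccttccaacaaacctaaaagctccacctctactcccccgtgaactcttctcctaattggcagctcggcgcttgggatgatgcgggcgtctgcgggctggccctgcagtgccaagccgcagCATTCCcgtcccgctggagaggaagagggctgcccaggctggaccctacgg
Cacna1s, chr1:136052561-136052860, plus strand: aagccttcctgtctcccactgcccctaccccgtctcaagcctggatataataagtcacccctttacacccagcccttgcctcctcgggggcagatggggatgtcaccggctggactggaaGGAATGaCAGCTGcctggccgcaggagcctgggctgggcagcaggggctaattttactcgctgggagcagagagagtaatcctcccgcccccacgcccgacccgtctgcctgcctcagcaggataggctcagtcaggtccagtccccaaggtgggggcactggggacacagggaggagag
Cacng6, chr7:3424412-3424711, plus strand: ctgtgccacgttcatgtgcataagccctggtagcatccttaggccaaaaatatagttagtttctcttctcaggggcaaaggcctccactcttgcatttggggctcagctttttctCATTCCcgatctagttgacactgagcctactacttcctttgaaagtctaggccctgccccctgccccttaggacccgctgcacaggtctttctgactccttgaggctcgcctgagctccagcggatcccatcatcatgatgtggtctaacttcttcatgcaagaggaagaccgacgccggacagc
All 3 windows held CATTCC, as did 14.7% of all 32851 windows and 10 of the 41 windows found for 30 member genes. In Cacna1s the match lies next to a CAGCTG, a motif found in 16.3% of all windows and in 13 of the 41. The Scn4b window was 66.3% GC with 26 CpG, Cacna1s was 63% with 9 CpG, and Cacng6 was 52.7% with 8 CpG, against a median of 52.7% over all windows. Of the other motifs searched on both strands, the MEF2 core TAAAAATA was in none of the 41 member windows and 2.72% of all windows, while AGATAA, a site of GATA factors, was in 1 of the 41 and 11.2% of all. The TATA box TATAAA was in 2 (13.6% of all), the T-box element AGGTGT in 3 (13.7%), the nuclear receptor element AAGGTCA in 3 (4.72%) and the AP-1 site TGACTCA in 1 (5.2%). A match is a description of the letters and not a bound site, and the 3 genes were picked for their values.

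Scn4a (Nav1.4), the skeletal muscle pore, was at 31.1, 27.4 and 1.33 CPM in flox and 11.2, 5.49 and 8.02 CPM in cKO. The 2 other flox libraries were above all cKO libraries and replicate 3 below them. Its log2 fold change was -1.28 (SE 0.95, edgeR adjusted p = 0.607), and -1.82 (SE 0.31, adjusted p = 0.0212) without flox replicate 3. The summed skeletal muscle markers, most of it Tnnt3, were higher in every cKO library, and their relation to Scn4a was not tested. Scn7a, an atypical family member that senses sodium rather than voltage, was at 31.9, 31.0 and 5.93 CPM in flox and 59.0, 24.9 and 43.0 CPM in cKO (log2 fold change 0.88, SE 0.66). Its log2 fold change was 0.43 (SE 0.36) without flox replicate 3.

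The tetrodotoxin-resistant pore Scn10a (Nav1.8) was at 1.55, 2.05 and 0 CPM in flox and 5.33, 3.31 and 1.31 CPM in cKO (log2 fold change 1.45, SE 1.22, and 0.89 without flox replicate 3). Scn3a, a pore of developing neurons, was at 3.75, 3.66 and 0.254 CPM and at 2.23, 0.966 and 1.82 CPM (log2 fold change -0.62, SE 0.87, and -1.14 without flox replicate 3). Both genes overlapped between the groups and neither passed the test. Summed Schwann cell and neuron markers (10 genes) were 6.01 to 12.3 CPM in flox and 11.6 to 22.7 CPM in cKO.

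Of the calcium channel pores, Cacna1s had the lowest fold change of all tested members. It was at 6.67, 7.58 and 8.98 CPM in flox (7.74 ± 1.16) and at 0.0839, 0.114 and 0.771 CPM in cKO (0.323 ± 0.388). Every flox library, replicate 3 included, was well above every cKO library, and cKO replicate 3 was the highest of its group. The fold change was 23.8-fold lower (log2 -4.57, SE 0.91), with an edgeR adjusted p of 0.0879 over 6 libraries and of 0.0302 without flox replicate 3. Cacna1s lies on chromosome 1, 136052750 to 136119822, plus strand, and an exon overlaps the predicted gene Gm37759 on the minus strand, so reads of the pair may not be separable if counting ignored strand. Skeletal muscle markers, summed as above and mostly Tnnt3, were higher in every cKO library, and their relation to Cacna1s was not tested.

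**Figure D2:**
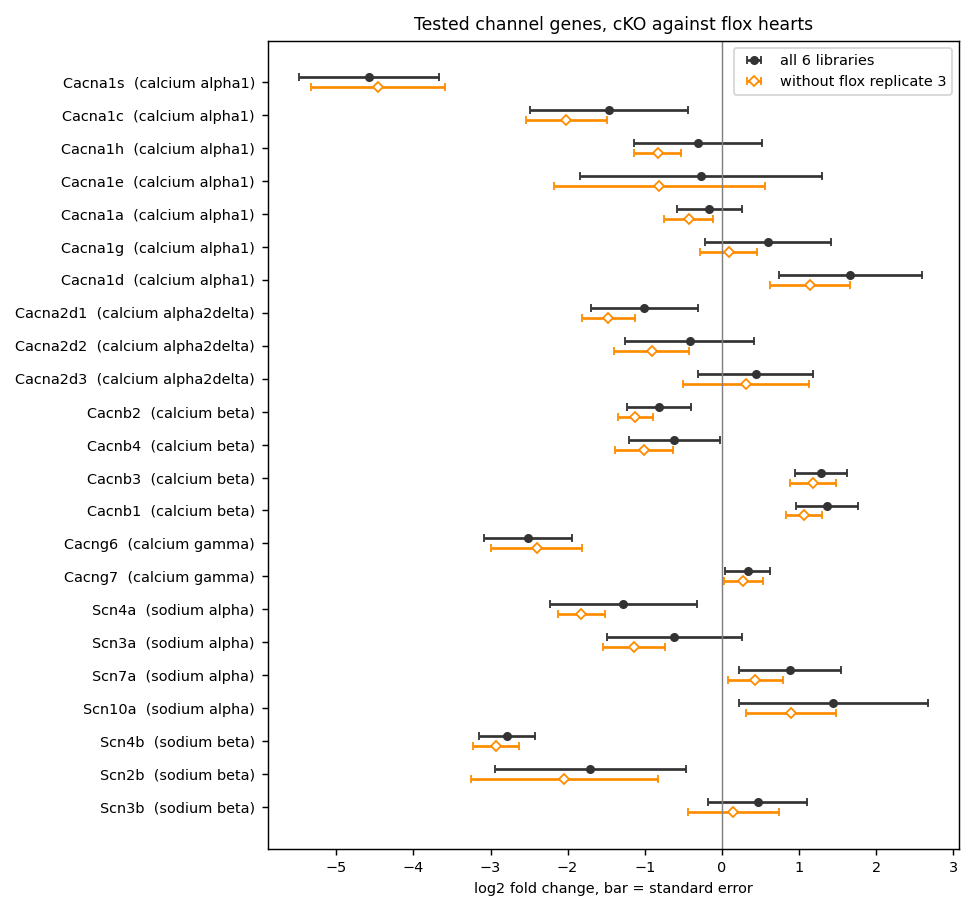
Log2 fold change (cKO over flox, with SE) of the tested heart members by subunit class, with all 6 libraries and without flox replicate 3. Cacna1s, Cacng6 and Scn4b lie far below 0 in both fits, and Cacnb1 and Cacnb3 lie above it.

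The main L-type pore Cacna1c was at 322, 345 and 17.9 CPM in flox and at 72.7, 33.3 and 142 CPM in cKO. Flox replicates 1 and 2 were above every cKO library and replicate 3 was below all of them. The log2 fold change was -1.47 (SE 1.02, edgeR adjusted p = 0.572) with 6 libraries and -2.02 (SE 0.53, adjusted p = 0.0683) without flox replicate 3. It passed the threshold when cKO replicate 2 was left out as well (-1.65, adjusted p = 0.0207). Cacna1d (Cav1.3), the L-type pore of atria and pacemaker tissue, was at 2.07, 1.63 and 0.113 CPM and at 3.87, 1.92 and 6.48 CPM (log2 fold change 1.67, SE 0.92, and 1.14 without flox replicate 3), and missed the threshold in both fits.

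The T-type pore Cacna1g (Cav3.1) was at 27.5, 32.3 and 2.68 CPM in flox and at 48.2, 21.7 and 24.8 CPM in cKO, a log2 fold change of 0.60 (SE 0.82) that was 0.08 (SE 0.37) without flox replicate 3. Cacna1h (Cav3.2) was at 18.8, 16.6 and 1.36 CPM and at 13.9, 8.33 and 7.51 CPM (log2 fold change -0.31, SE 0.83, and -0.83, SE 0.30, without flox replicate 3). Neither passed the test in either fit. The P/Q-type pore Cacna1a was at 3.74, 4.40 and 2.00 CPM and at 2.59, 2.43 and 4.03 CPM (log2 fold change -0.17, SE 0.42, and -0.43 without flox replicate 3).

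Counts per kilobase of transcript allow subunits to be compared with each other, as shares of their class in each library. Such shares are descriptions with no test, and they do not depend on how libraries were scaled. Within the alpha1 class the balance of pores differed. T-type pores (Cacna1g, Cacna1h and Cacna1i) held 17.5%, 17.2% and 13.7% of the alpha1 total per kilobase in flox and 54.0%, 53.9% and 24.1% in cKO. Every cKO library was above every flox library, with cKO replicate 3 much nearer to flox. Cacna1c held 76.8%, 76.9% and 38.3% in flox and 40.1%, 37.9% and 67.0% in cKO, and overlapped. In flox replicate 3, where Cacna1c was depleted, Cacna1s held 40.5%, against 3.35% and 3.55% in flox replicates 1 and 2. These shares weigh transcripts of unequal length, and the length trends of flox replicate 3 and cKO replicate 2 bear on them. Their part was not tested. Summed atrial and conduction markers (9 genes) were 17.2 to 40.9 CPM in flox and 34.7 to 75.5 CPM in cKO.

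The intracellular beta subunits, which carry the pore to the membrane and set its gating, lay on opposite sides. Cacnb2, the main cardiac isoform, was at 54.2, 50.9 and 22.5 CPM in flox and 25.4, 18.8 and 28.1 CPM in cKO (log2 fold change -0.82, SE 0.41, edgeR adjusted p = 0.416), and was lower without flox replicate 3 (-1.12, SE 0.22, adjusted p = 0.0327). Cacnb1, the skeletal muscle isoform, was at 7.00, 5.24 and 2.63 CPM and at 11.4, 13.9 and 12.9 CPM (1.36, SE 0.40, adjusted p = 0.184), and was higher without flox replicate 3 (1.06, SE 0.23, adjusted p = 0.0417). Cacnb3 was at 5.13, 3.98 and 3.59 CPM and at 8.02, 9.33 and 13.6 CPM, with a log2 fold change of 1.28 (SE 0.33) that missed the threshold in both fits (adjusted p = 0.137 and 0.0613). Cacnb4 was at 2.46, 2.5 and 0.649 CPM and at 1.64, 0.915 and 1.12 CPM (-0.62, SE 0.59, and -1.01 without flox replicate 3).

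As a share of the beta class per kilobase, Cacnb2 held 76.4%, 79.6% and 72.5% in flox and 49.9%, 38.4% and 44.4% in cKO. Cacnb1 held 10.3% ± 1.05 in flox and 27.6% ± 4.88 in cKO, and Cacnb3 held 12% ± 4.08 and 27.1% ± 4.18. None of the 3 shares overlapped between the groups, and flox replicate 3 was near the other flox libraries for Cacnb1 and Cacnb2. For Cacnb3 it stood apart, at 16.7% against 10.4% and 8.99% in flox replicates 1 and 2. The lowest cKO share of Cacnb3 was 22.7%, in replicate 1. The exons of Cacnb2 overlap 3 predicted minus-strand genes and those of Cacnb1 overlap Gm11629 on the opposite strand.

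**Figure D3:**
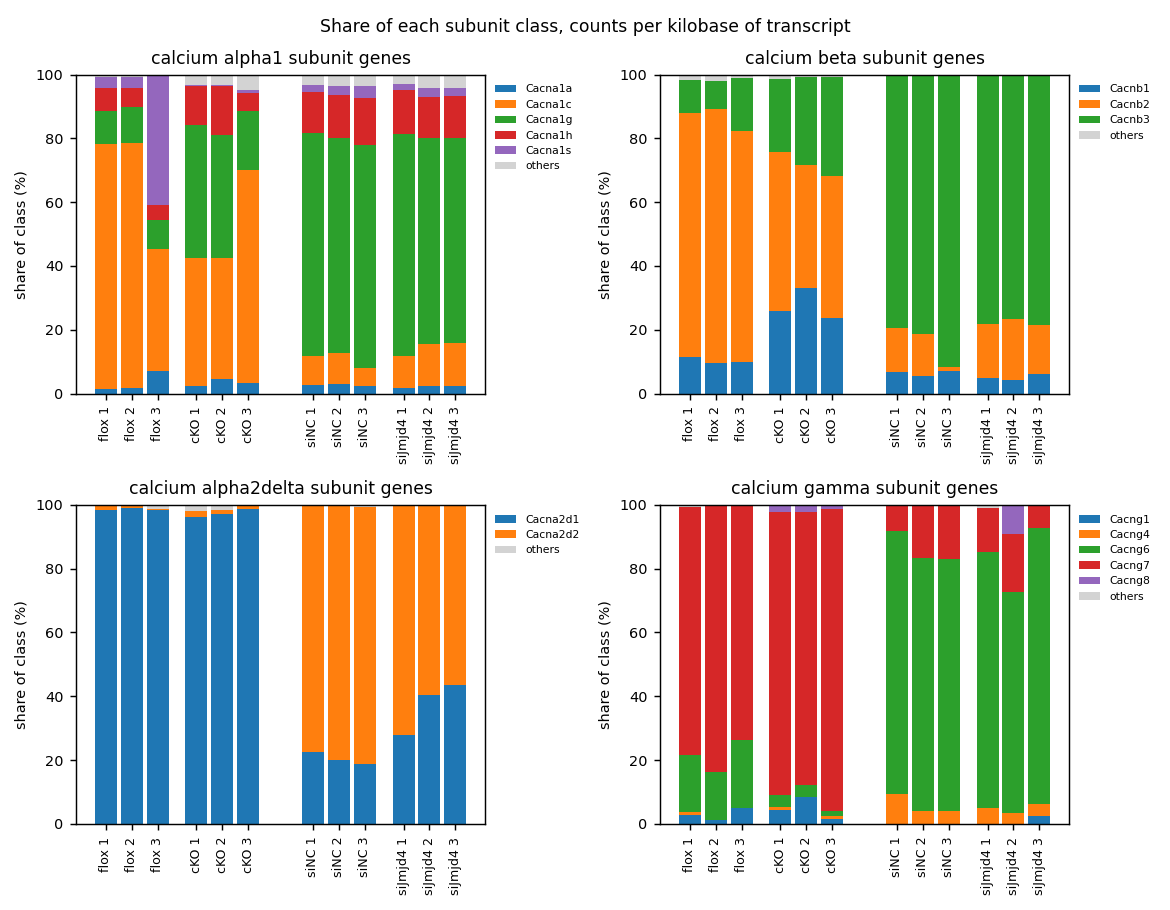
Share (percent, per kilobase of transcript) of each subunit in its class, 1 stacked bar per library, for calcium alpha1, beta, alpha2delta and gamma subunits in both systems, with subunits that never exceed 5% pooled as others. In hearts Cacnb2 holds a smaller share beside Cacnb1 and Cacnb3 in every cKO library than in any flox library. In the NRVCs the share of Cacna2d1 is higher in every siJmjd4 library.

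The alpha2delta subunit Cacna2d1, which raises surface calcium channels and is the target of gabapentin, was at 194, 183 and 32.1 CPM in flox and at 61.2, 43.0 and 99.2 CPM in cKO. The log2 fold change was -1.01 (SE 0.69, edgeR adjusted p = 0.565), and -1.48 (SE 0.34, adjusted p = 0.0502) without flox replicate 3. Cacna2d2 was at 1.65, 1.17 and 0.141 CPM and at 0.965, 0.432 and 0.838 CPM. Cacna2d1 held 98.6% ± 0.366 of the alpha2delta class in flox and 97.4% ± 1.20 in cKO.

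Of the gamma subunits, Cacng6, a subunit found in heart and skeletal muscle, was at 1.06, 1.04 and 1.3 CPM in flox and at 0.210, 0.267 and 0.112 CPM in cKO. All cKO libraries were below all flox libraries. The log2 fold change was -2.52 (SE 0.57) and missed the threshold with edgeR (adjusted p = 0.106, and 0.0565 without flox replicate 3). Cacng7, known mainly as a regulator of AMPA receptors, was at 5.15, 6.34 and 5.08 CPM and at 5.72, 6.79 and 8.36 CPM (0.33, SE 0.29). Its neighbour Cacng8, whose groups did not overlap either, was not tested, with no count in any flox library and 11, 12 and 9 counts in the cKO libraries. The cKO mean was 2.28-fold the mean floor of 3 counts per flox library. That floor covers counting error only, and the ratio leaves out the error of the cKO counts.

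The length trend of flox replicate 3 sorted the members. Among the 12 members with a transcript of at least 5 kb and a level of at least 1 CPM, the median log2 ratio of flox replicate 3 to flox replicates 1 and 2 (0.5 CPM added to each) was -2.40, from -4.18 (Cacna1c) to 0.31 (Cacna1s). Among the 7 shorter members it was -0.46, from -1.21 to 0.22. Cacna1s, an exception among the long members, and the short Cacng6 were near level across the 3 flox libraries, and Cacna1c and Scn4a were not. After an offset for each library's trend with length, 4 members were called by edgeR, Cacna1s, Cacnb2, Cacng6 and Scn4b, all lower, where 3.33% of all tested genes were called higher and 3.08% lower.

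**Figure D4:**
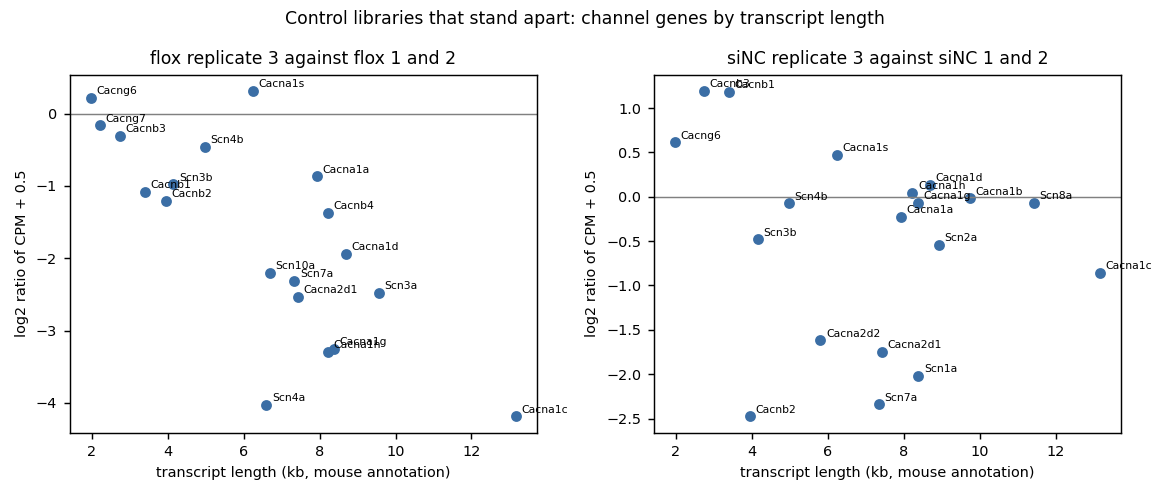
Log2 ratio of flox replicate 3 to the mean of flox replicates 1 and 2, and of siNC replicate 3 to siNC replicates 1 and 2, against transcript length in kb (linear axis, mouse annotation), 1 point per member of at least 1 CPM. In the hearts most long members lie well below 0, with Cacna1s an exception, while short members lie nearer 0.

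DESeq2's Wald test called 5 heart members, the same 5 tested members whose groups did not overlap, with 2 higher and 3 lower, where it called 5.29% of all tested genes higher and 4.37% lower. Voom with sample quality weights called 3 members higher and 7 lower, where 12% and 9.32% of all tested genes were called. Without flox replicate 3 and cKO replicate 2, edgeR called 4 members higher and 7 lower, beside 9.54% and 9.53% of all tested genes. These fits draw on the same libraries and are not independent of each other.

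Partners that couple to or regulate these channels were taken as a list of 45 genes, of which 43 were tested in the hearts. None passed with 6 libraries in edgeR's quasi-likelihood test. At an unadjusted p under 0.05, 2 were higher and 4 lower, where 8.22% and 6.79% of all tested genes stood. DESeq2's Wald test called 1 higher and 3 lower (5.29% and 4.37% of all tested genes). In direction 13 were higher and 30 lower, with a median log2 fold change of -0.32, and with library totals alone as the scale 27 were higher and 16 lower. That scale moved the median of all genes to 0.54. Without flox replicate 3, 1 partner was called higher and 5 lower, against 4.26% and 2.93% of all tested genes. With the length offset none was called higher and 4 lower (3.33% and 3.08% of all tested genes). Voom called 2 higher and 12 lower (12% and 9.32% of all tested genes).

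Fgf13, an intracellular protein that binds the tail of sodium channel pores, was at 40.7, 42.3 and 32.9 CPM in flox and 9.37, 10.8 and 11.8 CPM in cKO (log2 fold change -1.86, SE 0.29, edgeR adjusted p = 0.0508, and 0.00526 without flox replicate 3). Its relative Fgf14 was at 1.69, 1.70 and 1.07 CPM and at 4.51, 1.97 and 5.86 CPM (1.46, SE 0.49, adjusted p = 0.235). Trdn (triadin), which links calsequestrin to the release channel, was at 252, 217 and 374 CPM and at 62.6, 60.4 and 122 CPM (-1.78, SE 0.44, adjusted p = 0.128, and 0.0442 without flox replicate 3). None of the 3 overlapped between the groups, Fgf13 and Trdn being lower and Fgf14 higher in every cKO library.

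Atp2a2 (SERCA2), the pump that returns calcium to the sarcoplasmic reticulum, was at 12471, 11655 and 2993 CPM in flox and at 3267, 2656 and 3413 CPM in cKO (-1.54, SE 0.63, edgeR adjusted p = 0.319, and -1.95, adjusted p = 0.0104, without flox replicate 3). The sodium leak channel Nalcn was at 0.318, 0.195 and 0 CPM and at 2.09, 0.928 and 2.21 CPM (3.27, SE 1.02, adjusted p = 0.204, and 2.76, adjusted p = 0.0394, without flox replicate 3). Rangrf (MOG1), which helps sodium channels reach the membrane, was at 14.0, 19.9 and 78.6 CPM and at 6.70, 14.7 and 13.1 CPM (-1.70, SE 0.71), where the high flox value was replicate 3 and the fold change without it was -0.56.

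In the NRVCs 24 of the 38 members were tested and none was called by edgeR's quasi-likelihood test, nor under any alternative run. The 14 others had at most 22 counts in any library, and Cacng5 and Scn11a had none. Over all tested genes 0.00645% were called higher and 0% lower. At an unadjusted p under 0.05, 2 members were higher (Cacna1d and Cacna2d1) and none lower, against 5.79% and 2.92% of all tested genes, and DESeq2's Wald test had 3 higher and 1 lower at that p (8.72% and 9.56% of all tested genes). That test called no member, 0.878% of all tested genes higher and 0.206% lower. Without siNC replicate 3, 5 members were higher and 1 lower at an unadjusted p under 0.05 (15.8% and 8.09% of all tested genes) and none was called (0.487% and 0.0823%). Of the tested members, 8 lay wholly above and 3 wholly below the controls, where 22.4% and 17.8% of all tested genes did. The median log2 fold change was 0.08 against 0.01 over all genes.

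With the offset for transcript length the NRVC counts turned the other way. The median of the members was then -0.34 against -0.03 over all genes, with 6 members higher and 18 lower. At an unadjusted p under 0.05, 1 member was higher, of the alpha2delta class, and 7 were lower, all alpha1 pores, where 3.91% and 4.63% of all tested genes stood. The 9 tested alpha1 genes had a median of -0.83. None was called, as without the offset. Among members of at least 5 kb and 1 CPM, the log2 ratio of siNC replicate 3 to siNC replicates 1 and 2 had a median of -0.23. It ran from -2.34 (Scn7a) to 0.47 (Cacna1s). Of the alpha1 pores Cacna1c was at -0.86, while Cacna1g was at -0.07 and Cacna1h at 0.05, so not all of them followed the length trend. The part of the offset itself in the lower alpha1 values was not tested.

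Per kilobase, the T-type pore Cacna1g held most of the alpha1 total in the NRVCs (69.1% ± 1.36 in siNC, 66.1% ± 3.03 in siJmjd4). It was at 225, 198 and 202 CPM in siNC and 229, 182 and 177 CPM in siJmjd4 (log2 fold change -0.09, SE 0.16), and the T-type pores together held 82.8% ± 1.64 of the alpha1 total per kilobase in siNC and 79.6% ± 3.34 in siJmjd4. Cacna1h was at 40.6, 39.0 and 41.1 CPM and at 44.7, 35.8 and 36.1 CPM (-0.05, SE 0.16). In both the groups overlapped.

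The L-type pore Cacna1c was at 46.3, 44.7 and 24.8 CPM in siNC and at 50.7, 57.3 and 58.0 CPM in siJmjd4. The groups did not overlap, but the low siNC library was replicate 3, and the log2 fold change of 0.52 (SE 0.26, edgeR adjusted p = 0.379) was 0.28 (SE 0.08, adjusted p = 0.100) without it. Cacna1s was at 5.71, 6.13 and 8.42 CPM and at 4.78, 5.61 and 5.10 CPM (-0.39, SE 0.24, adjusted p = 0.386, and -0.20 without siNC replicate 3). Cacna1d was at 0.720, 0.741 and 0.850 CPM and at 1.20, 1.48 and 1.24 CPM (0.76, SE 0.31, adjusted p = 0.379).

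The pores known mainly from neurons were also detected. The N-type pore Cacna1b was at 10.5, 10.2 and 10.2 CPM and at 9.43, 11.3 and 11.5 CPM (log2 fold change 0.06, SE 0.18). Cacna1a was at 8.28, 8.00 and 6.89 CPM and at 5.88, 6.45 and 6.39 CPM (-0.31, SE 0.19, edgeR adjusted p = 0.390). Neither passed the test.

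Among the accessory calcium subunits, Cacna2d1 had the largest fold change of the tested NRVC members. It was at 17.7, 13.5 and 4.30 CPM in siNC and at 22.1, 35.9 and 49.5 CPM in siJmjd4. Every siJmjd4 library was above every siNC library, with a log2 fold change of 1.59 (SE 0.55, edgeR adjusted p = 0.379) that was 1.19 (SE 0.39, adjusted p = 0.174) without siNC replicate 3. Cacna2d2 was at 47.6, 42.4 and 14.3 CPM and at 44.7, 41.2 and 49.8 CPM (0.38, SE 0.43, and 0.0076 without siNC replicate 3). Within the class, Cacna2d1 held 22.5%, 19.9% and 18.9% per kilobase in siNC and 27.8%, 40.5% and 43.7% in siJmjd4, a share that did not overlap and in which siNC replicate 3 lay with the other controls.

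Cacnb3 held most of the beta subunit total per kilobase (84.2% ± 6.64 in siNC, 77.7% ± 0.971 in siJmjd4). It was at 65.1, 68.9 and 154 CPM in siNC and at 63.5, 61.2 and 62.2 CPM in siJmjd4 (log2 fold change -0.62, SE 0.35, edgeR adjusted p = 0.379), and the fold change was -0.10 without siNC replicate 3. Cacnb2 was at 16.1, 16.3 and 2.51 CPM and at 20.2, 21.9 and 17.6 CPM (0.77, SE 0.64, and 0.29 without siNC replicate 3). Cacnb1 was at 6.96, 5.67 and 14.9 CPM and at 4.78, 4.29 and 5.93 CPM (-0.88, SE 0.40, and -0.34 without siNC replicate 3). In each of the 3, siNC replicate 3 was the extreme library. Cacng6 was at 3.65, 2.81 and 5.21 CPM and at 2.96, 2.26 and 3.68 CPM (-0.39, SE 0.33, and -0.12 without siNC replicate 3).

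Scn4b, which was far lower in cKO hearts, overlapped between the NRVC groups. It was at 4.18, 4.32 and 4.02 CPM and at 4.23, 4.18 and 5.07 CPM (0.11, SE 0.21). Scn3b was at 34.8, 44.7 and 28.4 CPM and at 36.2, 31.3 and 28.8 CPM (-0.17, SE 0.21).

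Of the sodium pores, Scn1a was at 7.26, 5.54 and 1.21 CPM in siNC and 5.37, 5.43 and 4.88 CPM in siJmjd4 (log2 fold change 0.16, SE 0.59, and -0.29 without siNC replicate 3). Scn2a was at 2.54, 2.02 and 1.42 CPM and at 2.80, 3.22 and 3.90 CPM (0.73, SE 0.31, and 0.53 without siNC replicate 3). Scn7a was at 3.82, 3.10 and 0.283 CPM and at 4.82, 4.08 and 6.85 CPM (1.13, SE 0.81, and 0.60 without siNC replicate 3), and siNC replicate 3 was its lowest library. Scn8a, the pore of mature neurons, was at 0.669, 1.28 and 0.906 CPM and at 1.54, 1.37 and 1.41 CPM (0.59, SE 0.35). The last 3 did not overlap between the groups, yet none passed the test. Scn9a, whose groups also did not overlap, was not tested, with no count in any siNC library and 5, 9 and 12 counts with siJmjd4. The siJmjd4 mean was 2.41-fold the mean floor of 3 counts per siNC library, without the error of the siJmjd4 counts. The lowest siJmjd4 library, at 0.0578 CPM, was close to the highest siNC floor of 0.0566 CPM.

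**Figure D5:**
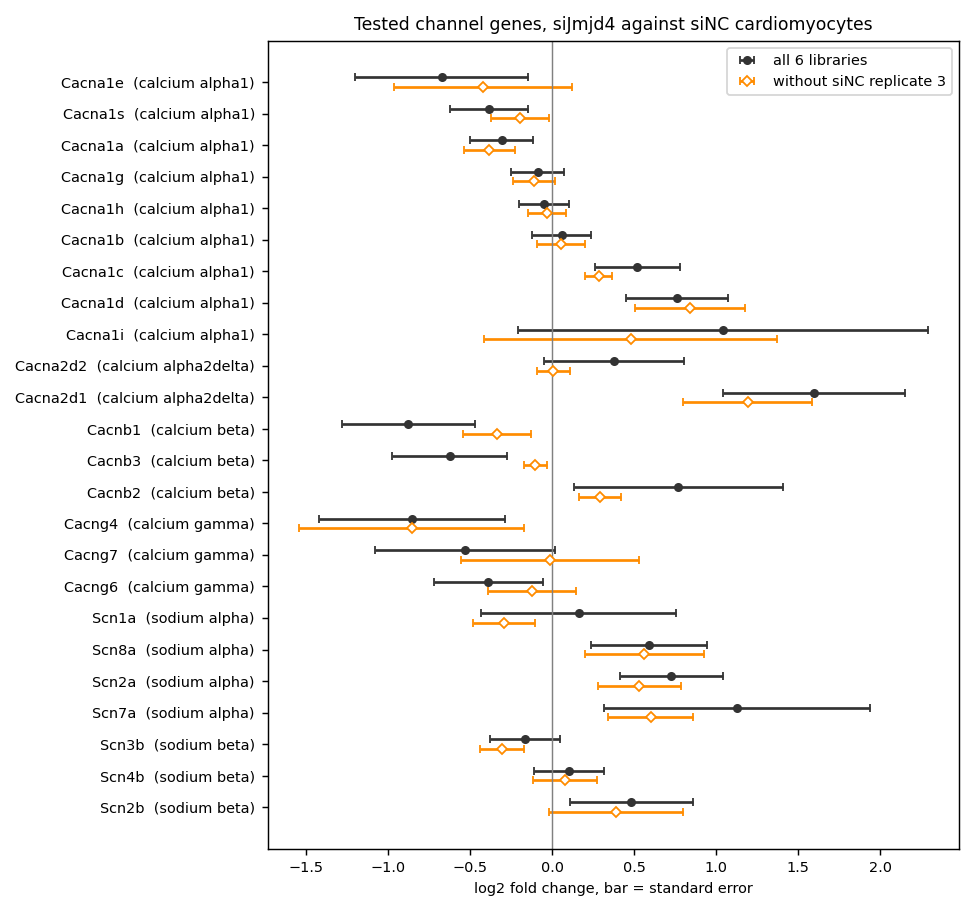
Log2 fold change (siJmjd4 over siNC, with SE) of the tested NRVC members by subunit class, with all 6 libraries and without siNC replicate 3. Cacna2d1 has the largest change at 1.59, and the values of Cacnb1, Cacnb2 and Cacnb3 move toward 0 without siNC replicate 3.

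In the NRVCs 42 of the 44 listed partners were tested and none was called by edgeR, with 23 higher and 19 lower. At an unadjusted p under 0.05, 3 were higher and 3 lower, against 5.79% and 2.92% of all tested genes. DESeq2's Wald test had 6 higher and 5 lower at that p (8.72% and 9.56% of all tested genes) and called none. Voom with sample quality weights called 6 partners higher and 2 lower, where it called 6.29% and 1.12% of all tested genes. Without siNC replicate 3 edgeR called 1, Slc8a1, higher (0.487% of all tested genes). Nalcn was again very low in the controls, at 0.117, 0.0617 and 0 CPM in siNC and 0.624, 0.590 and 0.390 CPM in siJmjd4 (log2 fold change 3.10, SE 0.93, edgeR adjusted p = 0.379). Akap5, which anchors protein kinase A to L-type channels, was at 6.93, 6.62 and 1.76 CPM and at 10.4, 15.9 and 22.0 CPM (1.66, SE 0.56). The pacemaker channel Hcn2 was at 19.2, 16.9 and 34.0 CPM and at 14.1, 12.3 and 12 CPM (-0.87, SE 0.30).

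The calcium-binding protein Sri (sorcin) was at 35.3, 36.8 and 35.7 CPM in siNC and at 42.9, 48.6 and 46.1 CPM in siJmjd4 (log2 fold change 0.35, SE 0.14). The caveolar protein Cav3 was at 104, 109.6 and 225 CPM and at 96.9, 74.3 and 72.8 CPM (-0.85, SE 0.33). The cardiac transcription factor Nkx2-5 was at 98.3, 102 and 201 CPM and at 89.7, 75.6 and 64.5 CPM (-0.80, SE 0.32). Sri, Cav3, Nkx2-5, Akap5, Hcn2 and Nalcn had no overlap between groups and none passed edgeR's quasi-likelihood test, each with an adjusted p of 0.379. Voom called all of them except Nkx2-5. Without siNC replicate 3 the log2 fold change was -0.39 for Cav3, -0.38 for Nkx2-5 and -0.50 for Hcn2. It was then 1.25 for Akap5, 2.56 for Nalcn and 0.35 for Sri.

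Whether the responses of the hearts and the NRVCs differed was tested with edgeR in a single fit to the 12 libraries, genes being paired by symbol. Of 29 members tested, 2 differed among 226 of 13482 paired genes (1.68%), as they did with DESeq2's size factors (1.56%). The heart change minus the NRVC change was -4.19 on the log2 scale for Cacna1s (SE 0.90, edgeR adjusted p = 0.0436) and -2.90 for Scn4b (SE 0.42, adjusted p = 0.00657). Species, age, culture and mode of targeting all differ between the systems and cannot be told apart, and Jmjd4 was not detectably lower in the NRVC libraries labelled siJmjd4. Without flox replicate 3 and siNC replicate 3, 8 members differed, among 12.8% of paired genes.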

How the data were processed

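RNA was extracted with TRIzol and libraries were made by standard Illumina methods, per the labels' protocols. The authors deposited whole-number counts per gene symbol, not normalized, in 1 table per species. The submitters' processing notes name HISAT2 2.1.0, StringTie 1.3.4, edgeR 3.20.9, mm10 and rn6, without their role. No source used here gives the annotation, strand setting or counting rules. Groups came from the labels alone, and no column was left out.

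The members and the partner and marker lists were chosen with earlier results of these data known. Results for some members are not reported here, and counts of members leave them out. Each system was fitted on its own 6 libraries with edgeR 4.0.16 (R 4.3.3): filterByExpr, TMM scaling and a robust quasi-likelihood test with group as the only term. Adjusted p is Benjamini-Hochberg, two-sided, over all tested genes, with calls under 0.05. CPM uses TMM-scaled totals, and ± is the SD of 3 libraries. With 3 against 3 an exact permutation p cannot go below 0.1, so none was computed. Members with a mean of at least 1 CPM in either group were named, with Scn4b, Cacna1s, Jmjd4 and the 6 tested partners of smallest p per system, and Scn2b, Cacna2d2, Cacng8, Scn9a and Slc8a1 were named after their values were seen. Transcript lengths (the longest protein-coding transcript) and positions are from GENCODE M21 on GRCm38, all 37 mouse members counted matched, and rat genes were given the length of their mouse namesake. Alternatives were DESeq2 1.42.0 (size factors and Wald test), library totals alone, limma 3.58.1 voom with sample quality weights, no filter, a minimum mean of 5 CPM, a transcript length offset (loess span 0.3, prior count 2), the replicate block, and left-out libraries. Scripts were tested on simulated data. Chi-square per degree of freedom between replicates was 26.1 to 1581, so no pair is a duplicate. Ratios against a count of 0 divide the mean of the other group by the mean of a floor of 3 counts in each library.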

Additional observations from a re-analysis of the deposited data

Results flagged for a closer look

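In 2 members the response of the hearts (cKO against flox) differed from that of the NRVCs (siJmjd4 against siNC) in the edgeR model of all 12 libraries. The difference of log2 fold changes, heart minus NRVC, was -4.187 for Cacna1s, where the heart value was -4.57 and the NRVC value -0.39. For Scn4b it was -2.896, from -2.79 and 0.11. Both were called with DESeq2's size factors too, and both were among the 8 that differed without flox replicate 3 and siNC replicate 3.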

How the results depend on the processing

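In the hearts 1 member was called in the report, as with DESeq2's size factors, no filter or a mean of at least 5 CPM. Library totals alone gave 0, DESeq2's Wald test 5, limma voom 10, the length offset 4, and the fit without flox replicate 3 and cKO replicate 2 gave 11 (4 higher, 7 lower, where 9.54% and 9.53% of all tested genes were called). Leaving out single libraries gave 0 to 5. With the replicate block 0 members were called. The deviations of same-numbered libraries from their group means had r of -0.14, -0.02 and -0.15 in the NRVCs, and 0.36, -0.48 and -0.33 in the hearts. The length trends of single libraries enter these r, which was 0.55 between flox replicate 3 and cKO replicate 2. Whether same-numbered samples share an origin therefore cannot be told from them. No NRVC member was called in any fit. The difference between systems was called for 8 members without flox replicate 3 and siNC replicate 3. Directions reversed, in log2 fold change, in the hearts for Cacna1a (0.29 with library totals, 0.072 without flox replicate 2, -0.43 to 0.072 over single libraries left out), Cacna1h (0.24 with the replicate block, 0.14 without flox replicate 1, -0.83 to 0.14) and Scn3b (-0.28 with voom, -0.11 without flox replicate 3 and cKO replicate 2). In the NRVCs the length offset reversed Cacna1b (-0.82), Cacna1c (-0.36), Cacna1d (-0.066), Scn2a (-0.0029), Scn8a (-0.33), Scn4b (-0.29) and Scn1a (-0.35). Library totals reversed Cacna1g (0.0034) and Cacna1h (0.048), Cacna1h also turned to 0.0082 without siJmjd4 replicate 2 and 0.0027 without siJmjd4 replicate 3, Scn1a to -0.19 with voom and -0.29 without siNC replicate 3 (-0.29 to 0.63), Scn3b to 0.026 without siNC replicate 2 (-0.31 to 0.026), and Jmjd4 to -0.17 with voom and -0.16 without siNC replicate 3 (-0.16 to 0.66). Without division by length, shares moved to 21.1% for Cacnb3 in cKO, 66.4% and 62.1% for Cacna1g in siNC and siJmjd4, and 71.4% for Cacnb3 in siJmjd4. The cause of these shifts was not tested, except that shares without division by length weigh long transcripts more by construction. Of the gene-level results, 315 kept direction and call in the hearts and 335 in the NRVCs, 52 and 5 passed the threshold only in an alternative, 7 and 0 lost it, and 6 and 16 reversed. Low counts limit the members under 1 CPM.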
